A study of Mus musculus with 9 samples.

Results

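Hippocampal gene expression of mice given excess methionine and then betaine (Bet+HMD) was compared with that of mice on the standard diet (Con), over the protein-coding genes with a mean of at least 5 FPKM in the 6 libraries. FPKM is the number of sequenced fragments of a gene scaled to its length and to a size set for the library. By this rule 7226 genes were kept of the 54532 listed and of the 22046 listed as protein-coding. The rule used the level over both groups together and not the difference between them. Total RNA was sequenced from the hippocampus of 9 mice, with 3 mice per group. The Con group was fed standard chow, HMD mice had a high-methionine diet for 8 weeks or more, and Bet+HMD mice ate that diet for 8 weeks and then had 2.5% (w/v) betaine in their drinking water for 2 weeks. Whether the high-methionine diet went on during the betaine weeks is not clear from the sources used here. The labels describe all mice as male, 6 to 8 weeks old and housed 2 per cage, whereas the study's methods describe females and do not mention betaine. The strain is given as C57BL/6 for Con and HMD and as C57BL/6, C57BL/7 and C57BL/8 for the 3 Bet+HMD mice. No transgene or deletion was present in any group. No group received betaine without the methionine diet, so the contrast with Con holds both agents together and also a difference in the weeks on the protocol.

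Betaine is a methyl donor: betaine-homocysteine methyltransferase uses it to turn homocysteine back into methionine, mainly in liver and kidney. Methionine is made into S-adenosylmethionine, which gives its methyl group to DNA, histones, RNA and lipids and leaves S-adenosylhomocysteine, from which homocysteine is formed. The hippocampus forms new memories, and its excitatory synapses are strengthened and weakened through AMPA and NMDA receptors for glutamate.

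Reads assigned to genes numbered 16665744 to 18291952 in Con and 16602496 to 16857079 in Bet+HMD. The library size fitted to the deposited FPKM was 0.953 to 1.03 times these reads in Con and 1.04 to 1.05 times in Bet+HMD. The deposited values thus carry a scaling that differs between the groups. Voom on the recovered reads, given below, used the assigned reads instead, and the part of this scaling in the calls was not tested. The Bet+HMD libraries had a read in more genes, with 25315 to 25663 genes against 20816 to 23272 in Con. The sum of FPKM over all genes was 249135 to 258514 in Bet+HMD and 288438 to 307899 in Con, and the members took 87.4% to 87.5% and 89.7% to 90.1% of the reads. The Bet+HMD replicates were closer to each other than the Con replicates. The median SD of log2(FPKM + 1) over the members was 0.0656 in Bet+HMD, 0.173 in Con and 0.140 in HMD, and it was smaller in Bet+HMD than in Con for 86.0% of the members. Across the members, Pearson's r of log2(FPKM + 1) was 0.990 to 0.994 between Bet+HMD libraries, 0.936 to 0.975 between Con libraries and 0.870 to 0.918 between the 2 groups, where the points share libraries and gene lengths. No replicates agreed within sampling noise. The Y-linked gene Ddx3y was at 12.7 to 21.2 FPKM in all 9 libraries and Xist at 0.0449 FPKM or less, as in male tissue. The Bet+HMD libraries appear only in the later of 2 deposited tables, and the sources do not say whether they were prepared and sequenced with the others, so betaine treatment and any such difference cannot be told apart.

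Bet+HMD and Con differed in a large share of the members, more often downwards than upwards. With limma's moderated test on log2(FPKM + 1) and an adjusted p under 0.05, 3017 members (41.8%) were called, against 39.7% of all 13643 genes tested. Of these, 960 (13.3%) were higher in Bet+HMD, where 19.4% of all genes tested were called higher. The other 2057 (28.5%) were lower, where 20.4% of all genes tested were called lower. A further requirement of at least a 2-fold change, a log2 fold change of 1, left 150 members higher (2.08%, against 5.77% of genes tested) and 279 lower (3.86%, against 2.97%). The median log2 fold change was -0.14 over the members and -0.04 over all genes tested, and the 5th and 95th percentiles of the members were -0.92 and 0.66. The split between rises and falls depended on the scaling: 31.8% of the called members were higher with the deposited FPKM, 50.7% after quantile normalization, 43.1% with voom on the recovered reads and 62.2% after rescaling to TPM, which moved the median of all genes tested to 0.17. Leaving out Bet+HMD replicate 1, 2 or 3 lowered the count of called members to 1906, 1851 or 1830.

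The Bet+HMD libraries also stood outside the 6 libraries of the Con and HMD mice. The 3 Bet+HMD values did not overlap the 3 Con values for 4181 members (57.9%, against 55.1% of all genes tested). For 3567 members (49.4%) all 3 Bet+HMD values lay beyond the range of all 6 Con and HMD libraries. Of these, 1151 members (15.9%) were above that range, against 21.9% of genes tested, and 2416 (33.4%) were below it, against 23.6%. Beyond-range members made up 85.3% of those that did not overlap Con. Most lay close to the edge of the range, since 587 members were beyond it by at least 1.5-fold, 234 of them above and 353 below. Of the members called higher, 891 were above the range and 69 were within it, and of those called lower, 1914 were below and 143 within. Another 260 members above the range and 502 below it were not called.

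**Figure D1:**
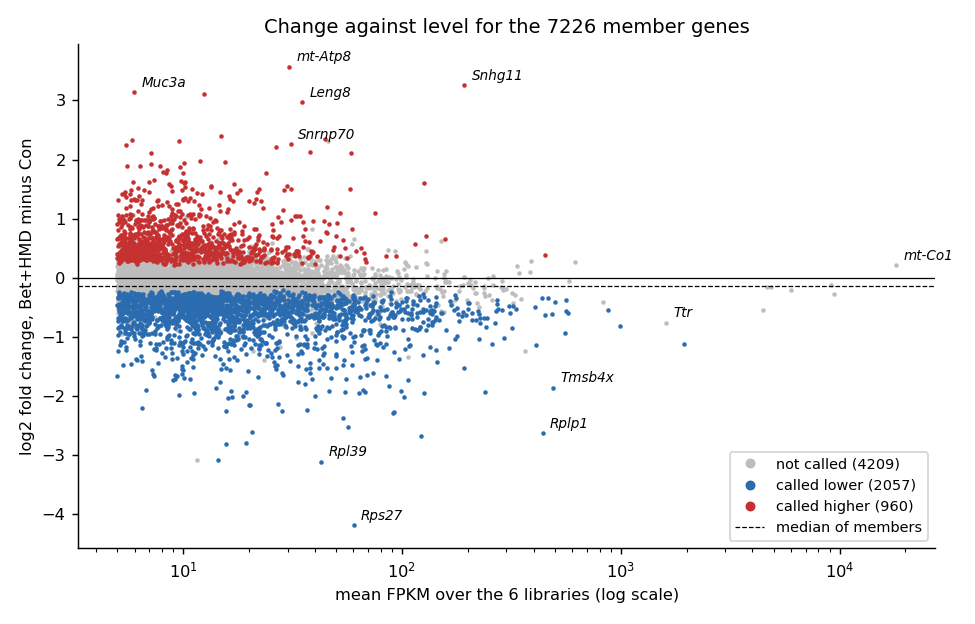
Log2 fold change of Bet+HMD over Con on the log2(FPKM + 1) scale (vertical axis) against mean FPKM over the 6 libraries (horizontal, log scale) for the 7226 members, 1 point per gene. Red points were called higher (960), blue points called lower (2057) and grey points not called (4209), and the dashed line is the median of the members (-0.14). Above 100 FPKM 6 genes were called higher and 129 lower.

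Of the 4209 members not called, 3162 had a 95% interval of the fold change within 1.5-fold either way and 3998 within 2-fold. The filter let in 321 members whose mean was under 5 FPKM in Con and 353 whose mean was under 5 FPKM in Bet+HMD. Of the first, 238 were called higher, and of the second, 235 were called lower, as a filter on the joint mean favours. Of the 6552 members with both means at or above 5 FPKM, 722 were called higher and 1822 lower. Just inside the limit were Zfp12 (mean 5.001 FPKM) and Sema3c (5.001 FPKM), and just outside it were Ccdc107 (4.997 FPKM) and Zdhhc3 (4.999 FPKM). By level, members between 5 and 10 FPKM had 516 rises and 573 falls of 2823. Among the 242 members above 100 FPKM there were 6 rises and 129 falls. Falls thus took a larger share of the genes of high level.

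Snhg11, Leng8, Snrnp70 and Pabpn1 were among the 10 largest rises. The 10 largest rises and falls were picked among members called with at least a 2-fold change and beyond the range of Con and HMD. Snhg11, a host gene of small nucleolar RNAs listed as protein-coding (ENSMUSG00000044349, chr2:158375638-158386145, plus strand), was at 47.1, 25.9 and 36.6 FPKM in Con and at 342, 341 and 362 FPKM in Bet+HMD. Its HMD values, 31.3 to 51.7 FPKM, overlapped those of Con. The mean was 9.54-fold higher (log2 fold change 3.26 ± 0.20 SE, limma adjusted p = 0.000204). Leng8 (chr7:4137039-4148177, plus strand) was at 8.04, 4.77 and 9.25 FPKM in Con and at 60.5, 65.4 and 61.6 FPKM in Bet+HMD, which is 8.501-fold higher. Snrnp70, a protein of the U1 small nuclear ribonucleoprotein that recognises the start of introns, was at 10.1, 6.19 and 15.4 FPKM in Con and at 52.4, 50.5 and 51.4 FPKM in Bet+HMD (log2 fold change 2.26 ± 0.27 SE). That the groups did not overlap in these genes follows from how they were picked. Pabpn1, the nuclear poly(A) binding protein, was at 2.88, 2.93 and 7.32 FPKM in Con and at 26.4, 25.7 and 23.9 FPKM in Bet+HMD.

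Other genes among the 10 largest rises had low levels in Con. Muc3a, a membrane mucin, was at 0.229 to 0.527 FPKM in Con, from 7 to 18 reads, and at 11.6, 12.7 and 10.3 FPKM in Bet+HMD, from 337 to 425 reads. Coro6, a coronin that binds actin, was at 2.07, 1.23 and 2.097 FPKM in Con and at 22.8, 24.95 and 21.5 FPKM in Bet+HMD. Rgs11, a regulator of G protein signalling, was at 0.733 to 1.62 FPKM in Con and 9.62 to 11.1 FPKM in Bet+HMD, and Spaca6, a protein of sperm-egg fusion, was at 0.725 to 1.597 and 9.31 to 9.90 FPKM. By the way they were picked, all 4 genes were above every Con and HMD library. AC149090.1, on the unplaced scaffold JH584304.1, was at 12.7 to 16.2 FPKM in Con and at 72.7 to 76.5 FPKM in Bet+HMD (log2 fold change 2.35 ± 0.11 SE). The largest fitted rise, that of the mitochondrial mt-Atp8, rested on uneven Con values of 0.813, 2.42 and 15.2 FPKM against 44.3, 51.8 and 69.0 FPKM in Bet+HMD, and its reading frame overlaps that of mt-Atp6. The sources used here do not give the strand setting of the counting, and values of overlapping genes are therefore uncertain. Another gene overlapped 56.7% of the members at least 2-fold higher, 44.1% of those at least 2-fold lower and 53.4% of all members, and Muc3a, Coro6 and AC149090.1 overlapped none.

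**Figure D2:**
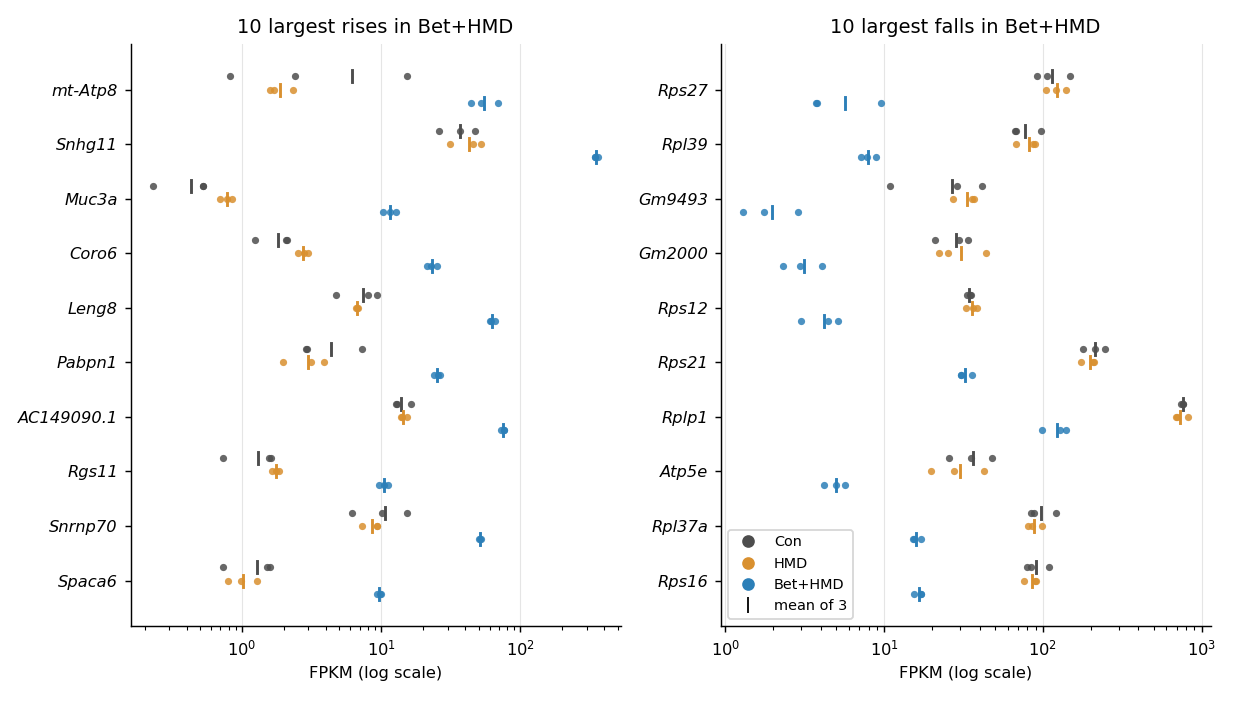
FPKM in each library (log scale) for the 10 largest rises (left) and the 10 largest falls (right) among members called with at least a 2-fold change and beyond the range of Con and HMD. Points are single libraries and short bars the mean of 3. The genes were selected for Bet+HMD points beyond all Con and HMD points, and for mt-Atp8 the Con points are spread from 0.813 to 15.2 FPKM.

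The largest falls were in genes of the cytosolic ribosome. Rps27, a protein of the small ribosomal subunit (ENSMUSG00000090733, chr3:90212522-90213651, minus strand), was at 106, 147 and 91.5 FPKM in Con, at 104 to 140 FPKM in HMD and at 3.75, 9.54 and 3.80 FPKM in Bet+HMD. The mean was 20.2-fold lower (log2 fold change -4.19 ± 0.34 SE, limma adjusted p = 0.000368), from 1632 to 2493 reads in Con and 68 to 176 in Bet+HMD. Rpl39 of the large subunit was at 68.2, 97.1 and 67.1 FPKM in Con and at 7.83, 8.87 and 7.17 FPKM in Bet+HMD. The acidic stalk protein gene Rplp1, among the most abundant of this family, was at 742, 769 and 765 FPKM in Con and at 140, 129 and 98.5 FPKM in Bet+HMD, which is 6.18-fold lower. Rps12 was at 33.2 to 35.5 FPKM in Con and at 2.98 to 5.14 FPKM in Bet+HMD, and Rps21 at 180 to 247 and 30.6 to 35.7 FPKM. The groups did not overlap in any of these genes, which was a condition of picking them. The other falls were Rpl37a (6.15-fold lower), Rps16 (5.50-fold), the predicted genes Gm9493 (13.6-fold) and Gm2000 (9.06-fold), and Atp5e, a small subunit of the mitochondrial ATP synthase, at 25.7 to 47.7 FPKM in Con and 4.22 to 5.70 FPKM in Bet+HMD. Ribosomal protein genes have many near-identical copies in the genome, so the counts of single genes of this family are uncertain.

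Ribosomal protein genes are known to start within a run of pyrimidines, so the sequence around the start of transcription is shown for 3 of the largest falls and 3 of the largest rises. Each run has 30 bases before the RefSeq start and 30 from it, on GRCm38.p6, written 5′ to 3′ on the strand of the gene, and capitals mark the letters CTTTC.
Rps27 (chr3:90213619-90213678, minus strand): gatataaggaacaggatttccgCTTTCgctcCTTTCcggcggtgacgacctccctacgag
Rps21 (chr2:180257349-180257408, plus strand): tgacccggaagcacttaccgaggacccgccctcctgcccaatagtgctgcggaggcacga
Rps16 (chr7:28350659-28350718, plus strand): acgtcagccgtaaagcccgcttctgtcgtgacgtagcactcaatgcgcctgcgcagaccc
Snhg11 (chr2:158375683-158375742, plus strand): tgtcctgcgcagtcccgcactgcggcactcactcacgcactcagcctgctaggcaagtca
Leng8 (chr7:4137026-4137085, plus strand): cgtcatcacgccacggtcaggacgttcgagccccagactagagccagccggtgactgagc
Snrnp70 (chr7:45395713-45395772, minus strand): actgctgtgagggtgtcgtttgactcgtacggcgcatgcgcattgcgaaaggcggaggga
A RefSeq promoter of 300 bases, 250 before the start and 50 from it, was matched to 5678 members. The RefSeq start lay within 50 bases of the deposited gene start for 67.6% of these members, and it was 75 bases away for Snhg11. Which start is used in these libraries was not tested. CTTTC was found in 65.5% of the 55 ribosomal protein promoters, in 30.01% of those of other members called lower, in 33.8% of those called higher, in 31.0% of all members and in 34.8% of all 32851 promoters in the table. Within the 60 bases around the start the shares were 32.7%, 5.25%, 5.63%, 5.76% and 7.93%. Its reverse complement GAAAG, counted separately, was in 38.2%, 31.7%, 27.5%, 29.5% and 34.1% of the 300-base promoters. The letters were thus more frequent in the ribosomal protein promoters, and in the other members that fell they were about as frequent as in all members. A match is a description of the sequence only.

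The change moved with gene length. Across the members, Spearman's rho of the log2 fold change with the deposited gene length was 0.476, with the mean FPKM it was -0.241 and with the GC percent -0.012, over genes that share the same 6 libraries. In the shortest decile, of 51 to 1750 bases, the median log2 fold change was -0.63 and of 723 genes 15 were called higher and 397 lower. In the longest decile, of 10078 to 41155 bases, the median was 0.15, with 232 called higher and 23 lower. The median length was 6846 bases for members called higher, 3081 for those called lower and 4483 for all members. Each decile between these ends had a larger median than the one before it. The same order held within each class of level: among members of 5 to 10 FPKM the median was -0.29 in the shortest 3 deciles and 0.08 in the longest 3, and above 100 FPKM it was -0.58 and -0.10. Without the ribosomal protein and respiratory chain genes, the shortest decile had 644 genes with a median of -0.58, and 338 of them were called lower. Whether this relation has a part in the results for single genes and lists was not tested, and lists are given with the median distance of their members from the median of their own length decile. The counts of each list are to be read beside the 13.3% of all members called higher and the 28.5% called lower.

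**Figure D3:**
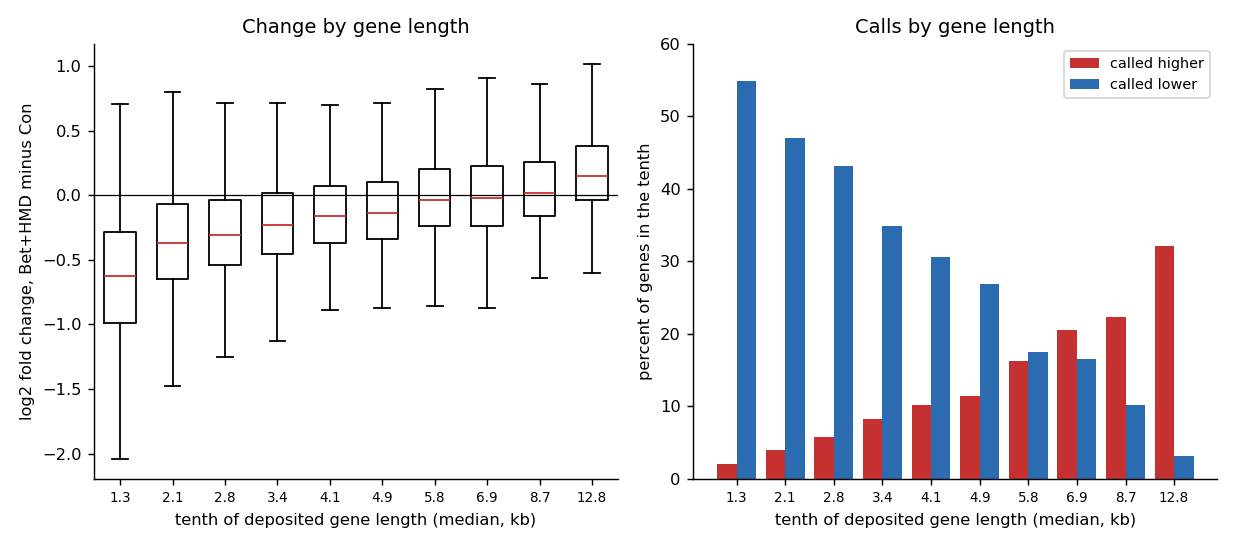
Left, log2 fold change of Bet+HMD over Con by decile of deposited gene length (boxes are quartiles, red lines medians, whiskers reach the last value within 1.5 box heights), and right, the percent of genes in each decile called higher (red) and lower (blue). The medians rise from -0.63 in the shortest decile to 0.15 in the longest, and the called-lower share goes from 54.9% to 3.18%.

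Splicing factors had the highest median of the lists with at least 5 members. Of the 46 members 30 were called higher and 2 lower, and the median log2 fold change was 0.60, which is 0.64 above the median of all genes tested and 0.67 above the members' own length deciles. Pnisr, a protein rich in serine and arginine, was at 9.16, 7.32 and 9.97 FPKM in Con and at 44.4, 42.6 and 45.5 FPKM in Bet+HMD (log2 fold change 2.21 ± 0.12 SE, limma adjusted p = 0.000131). Srrm2, a large scaffold of nuclear speckles, was at 26.0, 21.2 and 17.8 FPKM in Con and at 92.5, 97.3 and 97.3 FPKM in Bet+HMD. Both genes were above every Con and HMD library, and 14 of the splicing factors rose at least 2-fold. The 2 that fell did so by less: Srsf3, a serine and arginine rich splicing factor, was at 19.2 to 22.5 FPKM in Con and 14.9 to 16.4 FPKM in Bet+HMD (log2 fold change -0.35 ± 0.09 SE), and Hnrnpk, an RNA-binding protein, was at 53.1 to 57.6 and 46.1 to 47.4 FPKM. After quantile normalization the log2 fold change of Hnrnpk was 0.10. The call was lost without any one Bet+HMD library for Srsf3 (limma adjusted p 0.0666 to 0.102), and without Con replicate 1 or any one Bet+HMD library for Hnrnpk (0.0529 to 0.168).

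Genes that act on chromatin rose or were not called. Of 33 chromatin remodellers and histone methyltransferases 24 were called higher and 0 lower by limma (1 had a negative fold with an unadjusted p under 0.05, and voom called 0 lower), with a median log2 fold change of 0.36 and of 0.24 above their own length deciles (their median length was 12600 bases). Kmt2d, a methyltransferase of histone H3 lysine 4 at enhancers, was at 5.43, 4.22 and 3.24 FPKM in Con and at 10.7, 11.4 and 11.3 FPKM in Bet+HMD, and Kmt2a, of the same family, was at 10.5, 8.67 and 8.36 and at 18.2, 18.9 and 19.6 FPKM. After centring within length deciles, 10 of these 33 genes were called higher. Of 16 histone acetyltransferases and deacetylases 5 were called higher and 0 lower by limma (0 at an unadjusted p under 0.05 and 0 with voom), with a median of 0.05 and of 0.18 from their own length deciles. Crebbp, the acetyltransferase that binds CREB, was at 5.90, 5.44 and 3.37 FPKM in Con and at 8.79, 8.59 and 9.29 FPKM in Bet+HMD (log2 fold change 0.77 ± 0.17 SE, limma adjusted p = 0.0128, and 0.0506 without Bet+HMD replicate 3). Hdac6, a cytoplasmic deacetylase of tubulin, was at 5.06 to 5.73 and 7.69 to 8.54 FPKM. Of 103 zinc finger genes named Zfp, 27 were called higher and 11 lower, with a median of 0.12 and of 0.19 from their own length deciles, and examples were Zfp692 (3.46-fold higher) and Zfp771 (2.55-fold lower).

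Genes of protein synthesis, of the respiratory chain and of protein turnover were lower in Bet+HMD. Of 76 ribosomal protein members 61 were called lower, 49 of them by at least 2-fold, and 0 higher by limma, as also at an unadjusted p under 0.05 and with voom. Their median log2 fold change was -1.17, which is -0.77 from their own length deciles, and it was -0.98 after rescaling to TPM. The median was thus below that of members of like length, and the genes of the family differed, from -4.19 to 0.25. Of 55 translation factors 28 were called lower and 3 higher, with a median of -0.38 and of -0.15 from their own length deciles. After TPM rescaling 16 were lower and 6 higher, with a median of -0.18. Eef1b2, an exchange factor of elongation, was at 44.4, 39.2 and 51.6 FPKM in Con and at 17.8, 15.6 and 15.6 FPKM in Bet+HMD, whereas Eif2s3y, the Y-linked copy of an initiation factor subunit, was at 5.53 to 7.42 and 16.2 to 17.5 FPKM.

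Of 76 nuclear genes of the respiratory chain 57 were called lower and 0 higher by limma, by its unadjusted p or by voom, with a median log2 fold change of -0.91 and -0.49 from their own length deciles. Atp5k, a small subunit of ATP synthase, was at 55.6, 23.5 and 65.5 FPKM in Con and at 6.45, 9.45 and 9.98 FPKM in Bet+HMD (log2 fold change -2.25 ± 0.37 SE, limma adjusted p = 0.00402). Its 2 groups did not overlap, although the Con values were uneven. Of the 13 protein genes of the mitochondrial genome 3 were called higher and 0 lower by limma (2 at an unadjusted p under 0.05 and 1 with voom), and their median was -0.16 with the deposited FPKM but 0.07 after TPM rescaling and 0.16 after quantile normalization. They included the 5 members of highest level. The first of these, mt-Co1, a subunit of cytochrome c oxidase, was at 16771, 19202 and 14596 FPKM in Con and at 19628, 18813 and 19551 FPKM in Bet+HMD, with a log2 difference of 0.21 (95% interval -0.11 to 0.53). For mt-Cytb, mt-Nd1, mt-Nd2 and mt-Nd5 the log2 differences were -0.27, -0.12, -0.21 and -0.16, and none passed the test. Besides mt-Atp8, mt-Nd4l was called higher, at 44.3 to 80.6 FPKM in Con and at 327, 117 and 137 FPKM in Bet+HMD, and its limma adjusted p was 0.0669 without Con replicate 1.

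Of 34 proteasome members 24 were called lower and 1 higher, with a median of -0.56 and -0.30 from their own length deciles. Psma6, of the catalytic core, was at 63.4, 79.4 and 73.2 FPKM in Con and at 28.3, 28.5 and 26.8 FPKM in Bet+HMD, and Psmb5, which holds a protease site, was 2.87-fold lower. Psmd11, of the regulatory particle, was the one called higher, at 7.18 to 7.74 and 8.74 to 9.24 FPKM, and lost the call without Con replicate 1, Con replicate 2 or any one Bet+HMD library (limma adjusted p 0.0703 to 0.176). Of 18 vacuolar ATPase members, which acidify lysosomes and synaptic vesicles, 9 were called lower and 0 higher by limma, its unadjusted p or voom (median -0.46, and -0.11 from their own length deciles). Of 23 heat shock proteins and chaperones 8 were called lower and 1 higher, with a median of -0.29 that became 0.02 after quantile normalization, and of -0.06 from their own length deciles. After TPM rescaling 3 were lower and 3 higher. Hspa8, the constitutive cytosolic chaperone, was at 352, 341 and 333 FPKM in Con and at 239, 237 and 223 FPKM in Bet+HMD, and Calr, a chaperone of the endoplasmic reticulum, was at 68.4 to 83.2 and 90.2 to 98.8 FPKM. Without Con replicate 1 or any one Bet+HMD library the call of Calr was lost (limma adjusted p 0.0655 to 0.114).

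**Figure D4:**
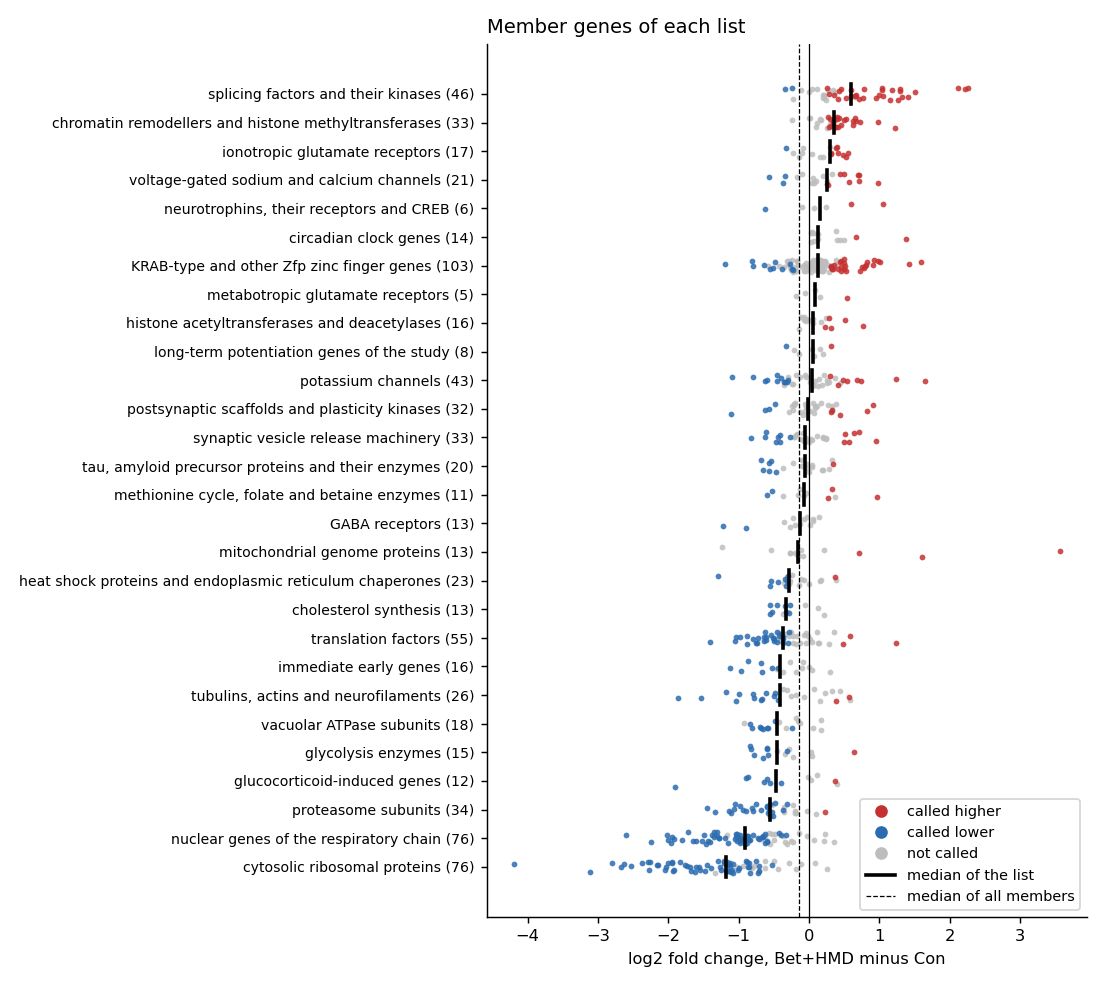
Log2 fold change of Bet+HMD over Con (horizontal axis) for the members of each gene list with at least 5 members, 1 point per gene, with the number of members in parentheses. Red points were called higher, blue lower and grey not called, black bars are list medians and the dashed line is the median of all members (-0.14). The lists run from ribosomal proteins at -1.17 to splicing factors at 0.60.

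The genes of the methionine, folate, choline and betaine pathways changed in both directions. Of 30 listed genes 11 were members, of which 3 were called higher and 2 lower, with a median log2 fold change of -0.07 that became 0.15 after TPM rescaling. Chka, choline kinase, which commits choline to membrane lipids, was at 4.87, 4.13 and 3.74 FPKM in Con, 4.23 to 5.44 FPKM in HMD and 9.15, 9.23 and 9.39 FPKM in Bet+HMD. It was 2.18-fold higher (log2 fold change 0.97 ± 0.10 SE, limma adjusted p = 0.000695) and above every Con and HMD library. Cbs, cystathionine beta-synthase, which takes homocysteine out of the cycle towards cysteine, was at 7.34, 7.23 and 7.96 FPKM in Con and at 9.25, 9.40 and 9.04 FPKM in Bet+HMD (log2 fold change 0.27 ± 0.08 SE, limma adjusted p = 0.0300, and 0.0701 to 0.120 without Con replicate 1 or any one Bet+HMD library).

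The subunits of methionine adenosyltransferase, which makes S-adenosylmethionine, went opposite ways. Mat2a, the catalytic subunit, was at 31.6, 33.1 and 33.8 FPKM in Con and at 40.6, 40.8 and 42.5 FPKM in Bet+HMD (log2 fold change 0.32 ± 0.08 SE, limma adjusted p = 0.0149, and 0.0611 to 0.0737 without any one Bet+HMD library), and its HMD values of 34.8 to 42.6 FPKM overlapped those of Bet+HMD. Mat2b, the regulatory subunit, was at 19.4, 23.3 and 22.6 FPKM in Con and at 13.7, 13.6 and 14.4 FPKM in Bet+HMD, 1.56-fold lower and below the HMD values too. Ahcy, which splits S-adenosylhomocysteine into adenosine and homocysteine, was at 6.76, 7.21 and 7.71 FPKM in Con and at 4.58, 5.10 and 4.48 FPKM in Bet+HMD (log2 fold change -0.52 ± 0.09 SE). The Con and Bet+HMD values of all 3 genes were apart.

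The other 6 members of this list did not pass the test. Ahcyl1 and Ahcyl2, relatives of Ahcy, had log2 differences of -0.15 (95% interval -0.38 to 0.07) and -0.05 (-0.26 to 0.16). Those of Mthfd1, a folate enzyme, Aldh7a1, which oxidises betaine aldehyde, and Slc6a20a, a transporter that takes up proline and betaine, were -0.12 (-0.37 to 0.12), -0.07 (-0.30 to 0.17) and 0.37 (-0.03 to 0.77). Slc44a1, a choline transporter, was at 16.0, 23.1 and 16.6 FPKM in Con and at 13.6, 14.4 and 13.7 FPKM in Bet+HMD, and although all Bet+HMD values were below the other libraries its limma adjusted p was 0.0751. Of the 19 genes of the list under 5 FPKM, 14 were tested, 2 were called higher and 4 lower. Mtr, methionine synthase, was at 2.44 to 3.00 FPKM in Con and 3.85 to 4.49 FPKM in Bet+HMD. Bhmt, the methyltransferase that uses betaine, was at 0.125, 1.67 and 0.142 FPKM in Con and at 0.01999, 0.0785 and 0.0599 FPKM in Bet+HMD, too low to be tested.

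**Figure D5:**
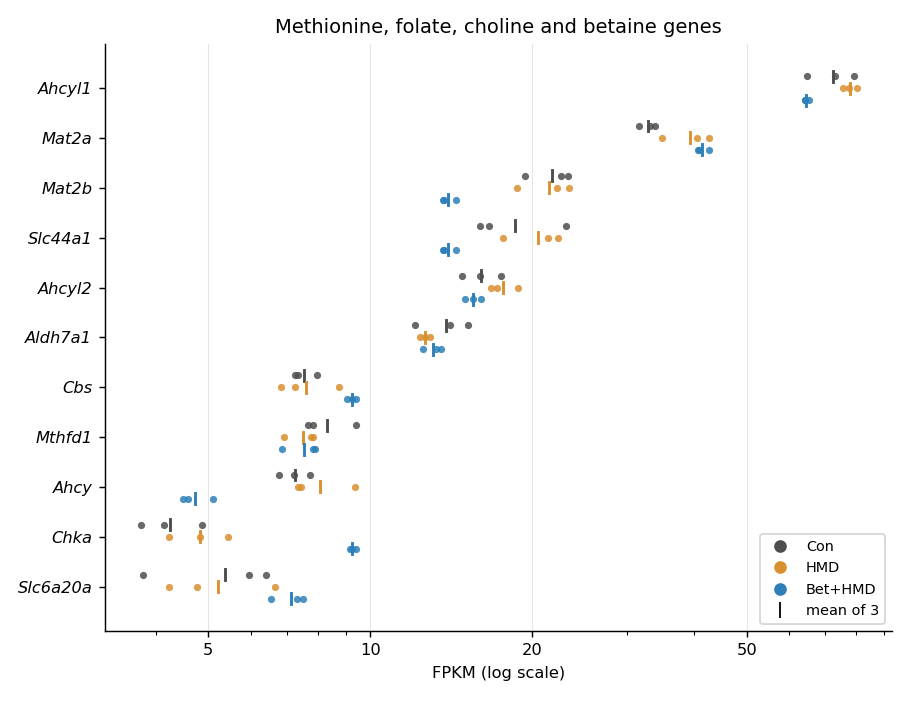
FPKM in each library (horizontal axis, log scale) for the 11 members among the genes of methionine, folate, choline and betaine metabolism. Points are single libraries and bars the mean of 3. Chka lies above and Mat2b and Ahcy lie below all Con and HMD libraries in Bet+HMD, while Mat2a overlaps HMD.

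Of 8 long-term potentiation genes, all of them members, 1 was called higher and 1 lower, with a median of 0.05. The study chose this list from histone acetylation peaks lower in HMD mice. After TPM rescaling 3 were called higher and 0 lower. Gria3, an AMPA receptor subunit, was at 22.8, 26.6 and 23.0 FPKM in Con and at 29.6, 29.4 and 31.3 FPKM in Bet+HMD (log2 fold change 0.31 ± 0.09 SE, limma adjusted p = 0.0328). Gria1, another AMPA subunit, was at 161, 144 and 174 FPKM in Con, 126 to 145 FPKM in HMD and 128, 126 and 125 FPKM in Bet+HMD (log2 fold change -0.33 ± 0.10 SE, limma adjusted p = 0.0320). After quantile normalization the log2 fold change of Gria1 was 0.12 and did not pass the test (limma adjusted p = 0.268). Without Con replicate 1 or any one Bet+HMD library neither call held (limma adjusted p 0.0735 to 0.115 for Gria1 and 0.0857 to 0.123 for Gria3). The NMDA subunits Grin2a and Grin2b had log2 differences of 0.15 (95% interval -0.17 to 0.47) and 0.20 (-0.03 to 0.43). Those of the kinases Ptk2b and Src were -0.21 (-0.49 to 0.08) and -0.14 (-0.39 to 0.10), of the glutamate transporter Slc1a1 0.04 (-0.18 to 0.25) and of the calcium exchanger Slc24a2 0.07 (-0.16 to 0.29). None of these 6 passed the test, and each interval stays within 1.5-fold either way.

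Among all 17 ionotropic glutamate receptor members 8 were called higher and 1 lower (median 0.29, and 0.29 from their own length deciles). Gria4 was at 9.37, 9.99 and 10.2 FPKM in Con and at 15.5, 14.2 and 15.1 FPKM in Bet+HMD, and the kainate receptor Grik3 at 5.17 to 6.31 and 8.64 to 8.92 FPKM, both 1.52-fold higher. Of 5 metabotropic receptors only Grm7 was called, 1.52-fold higher. Of 13 GABA receptor members 2 were called lower and 0 higher by limma, its unadjusted p or voom, with a median of -0.13 that became 0.07 after TPM rescaling. Gabra2, a subunit of the synaptic GABA-A receptor, was at 43.3, 42.6 and 26.9 FPKM in Con and at 14.5, 14.9 and 16.4 FPKM in Bet+HMD (log2 fold change -1.22 ± 0.18 SE, limma adjusted p = 0.00290). Gabra5, the subunit of extrasynaptic receptors abundant in the hippocampus, was at 87.5, 93.3 and 82.6 FPKM in Con and at 49.1, 45.9 and 45.4 FPKM in Bet+HMD. Both subunits were below every Con and HMD library.

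Of 21 sodium and calcium channel members 9 were called higher and 3 lower (median 0.26, and 0.18 from their own length deciles). Of 43 potassium channel members 8 were called higher and 11 lower (median 0.04, and 0.097 from their own length deciles), but after TPM rescaling 16 were higher and 2 lower. Kcnt1, a potassium channel opened by sodium, was at 3.11, 3.23 and 2.83 FPKM in Con and at 12.1, 11.8 and 11.3 FPKM in Bet+HMD, 3.83-fold higher. Kcnk9, a leak channel, was at 6.16, 5.01 and 4.52 and at 13.8, 13.7 and 13.4 FPKM. Cacna1g, a T-type calcium channel, was 2.19-fold higher. The falls included Kcng2 (2.42-fold), a silent subunit of potassium channels. Both clustered protocadherin members were not called.

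Synaptic genes changed in both directions. Of 33 members of the vesicle release machinery 6 were called higher and 8 lower, with a median of -0.05 that was 0.08 from their own length deciles. After TPM rescaling 10 were higher and 3 lower, with a median of 0.17. Of 32 postsynaptic scaffolds and kinases 5 were called higher and 4 lower, with a median of -0.01 that was -0.05 from their own length deciles. After TPM rescaling 9 were higher and 3 lower, with a median of 0.21. Over all members 13.3% were called higher and 28.5% lower. Rimbp2, which links calcium channels to vesicles, was 2.00-fold higher, and Syt7, a calcium sensor, was at 38.3, 38.7 and 36.2 FPKM in Con and at 61.9, 63.6 and 61.8 FPKM in Bet+HMD. Syn2, synapsin 2, was at 124, 109 and 96.0 and at 69.2, 70.5 and 72.4 FPKM. The postsynaptic scaffold Shank1 was 1.75-fold higher. Homer3, a scaffold of metabotropic receptors, was 2.45-fold lower. Nrgn, neurogranin, which binds calmodulin, was at 578, 474 and 584 and at 343, 361 and 350 FPKM, and it lay at the median of its own length decile (distance 0.00).

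Cytoskeletal genes were more often lower, with 13 of 26 members called lower and 2 higher (median -0.41, and -0.06 from their own length deciles). Tmsb4x, thymosin beta 4, which binds actin monomers, was at 708, 812 and 781 FPKM in Con and at 228, 224 and 180 FPKM in Bet+HMD, 3.64-fold lower. Stmn3, a stathmin that binds tubulin, was 2.92-fold lower, whereas Map1a, a large microtubule-associated protein, was at 103, 80.7 and 93.8 FPKM in Con and at 134, 139 and 139 FPKM in Bet+HMD. Of the 20 tau and amyloid precursor genes 1 was called higher and 6 lower (median -0.06, and 0.16 after TPM rescaling). Mapt, the tau gene, was at 50.2, 43.4 and 54.9 FPKM in Con and at 63.2, 61.6 and 63.0 FPKM in Bet+HMD (log2 fold change 0.34 ± 0.10 SE, limma adjusted p = 0.0381, and 0.0748 to 0.121 without Con replicate 1 or any one Bet+HMD library). Lcmt1, which methylates the catalytic subunit of the phosphatase PP2A, was at 16.9, 17.7 and 16.5 and at 10.3, 10.6 and 9.88 FPKM. Cdk5r1, the activator of the tau kinase Cdk5, was 1.59-fold lower.

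Of 16 immediate early genes 7 were called lower and 0 higher by limma, its unadjusted p or voom (median -0.41, and -0.09 from their own length deciles). After TPM rescaling 3 were lower and 1 higher, and after length centring 4 were lower. Fos was at 16.5, 8.26 and 8.68 FPKM in Con, 5.36 to 6.13 FPKM in HMD and 4.23, 4.33 and 4.37 FPKM in Bet+HMD. Of 12 glucocorticoid-induced genes 7 were called lower and 1 higher (median -0.48, and -0.13 from their own length deciles). After TPM rescaling 5 were lower and 3 higher, and after length centring 6 were lower and 3 higher. Mt2, a short gene, had 77 to 134 reads in Con and 12 to 30 in Bet+HMD. The metallothionein genes Mt2 and Mt1, which bind zinc and copper, were 4.91-fold and 1.84-fold lower, and Zbtb16, a transcription factor, was the one called higher (1.32-fold), a call lost without Con replicate 1 or any one Bet+HMD library (limma adjusted p 0.0558 to 0.0839). Of 14 circadian clock genes 2 were called higher, a share close to that of all members, and 0 lower by limma, its unadjusted p or voom (median 0.13, and 0.30 from their own length deciles). Per3 was at 3.34, 3.22 and 2.63 FPKM in Con and at 9.30, 9.62 and 9.73 FPKM in Bet+HMD, and Per2 at 4.51 to 5.38 and 8.01 to 8.80 FPKM. The hour of tissue collection is not given in the sources used here. Of 6 neurotrophin and CREB genes 2 were called higher and 1 lower. Bdnf, the neurotrophin of activity-dependent plasticity, was at 8.35, 8.51 and 8.65 FPKM in Con, at 5.19, 8.31 and 5.52 FPKM in HMD and at 5.10, 4.97 and 5.47 FPKM in Bet+HMD (log2 fold change -0.62 ± 0.07 SE, limma adjusted p = 0.00124).

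In metabolism, 8 of 15 glycolysis members were called lower and 1 higher (median -0.46, and -0.21 from their own length deciles). Eno1, enolase, was at 133, 117 and 110 FPKM in Con and at 71.9, 67.9 and 60.9 FPKM in Bet+HMD, and Pfkp, a phosphofructokinase, was 1.58-fold higher. Of 13 cholesterol synthesis members 8 were called lower and 0 higher by limma (0 at an unadjusted p under 0.05 and 1 with voom), with a median of -0.32 and of -0.16 from their own length deciles. After TPM rescaling 3 were lower and 1 higher, with a median of -0.14. Insig1, which holds back the activation of this pathway, was at 20.04, 23.4 and 20.1 and at 14.1, 13.8 and 14.0 FPKM.

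With the deposited FPKM, the cell type markers that were members were lower or not called, and no listed marker was at 0 in all 9 libraries. Counting all tested markers, 1 oligodendrocyte precursor and 1 red blood cell marker were called higher. Of 7 neuron markers 3 were called lower, and the summed level of the 7 was 977 to 1127 FPKM in Con and 931 to 941 FPKM in Bet+HMD. In Bet+HMD 3 neuron markers were below every Con and HMD library and 2 were above, though not called. These 2 were Rbfox3 (38.9 to 40.9 FPKM) and Map2 (110 to 115 FPKM). Of 11 astrocyte markers 3 were called lower (sum 829 to 908 and 828 to 834 FPKM), of 10 oligodendrocyte markers 4 (838 to 1386 and 880 to 887 FPKM), of 10 microglia markers 6 (202 to 248 and 138 to 152 FPKM) and of 9 interneuron markers 3 (416 to 507 and 278 to 346 FPKM). None of these was called higher by limma, while 1 astrocyte marker had an unadjusted p under 0.05 upwards and voom called 1 neuron and 1 astrocyte marker higher. C1qb, a complement gene of microglia, was at 29.3, 31.1 and 38.5 FPKM in Con and at 17.4, 16.9 and 14.3 FPKM in Bet+HMD, and Mog, a myelin protein, was 2.00-fold lower. In bulk tissue, fewer cells of a type and less RNA per cell cannot be told apart. The median distance from their own length deciles was -0.21 for the microglia, -0.11 for the interneuron, -0.10 for the neuron and -0.17 for the oligodendrocyte markers, and -0.00027 for the astrocyte markers. These falls depended on the scaling. After TPM rescaling 2 neuron markers were called higher and 1 lower, 1 astrocyte marker was called higher and 0 lower, and 1 oligodendrocyte, 1 interneuron and 4 microglia markers were called lower.

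The region markers were not equal between the groups. All 3 CA3 members were called lower (summed level of the CA3 list 185 to 230 FPKM in Con and 102 to 120 FPKM in Bet+HMD). Most of that sum was Nnat, at 120 to 164 and 70.2 to 89.1 FPKM. Of the 6 CA3 genes tested 4 were called lower and 0 higher, and Coch was at 1.86 to 3.38 and 2.89 to 3.51 FPKM. In the other lists 2 of 5 CA1 members and 1 of 5 dentate gyrus members were called lower. Of 4 cortex members 2 were called higher (summed level of the list 34.8 to 45.4 and 60.5 to 62.8 FPKM). Bok, in the CA3 list, was at 25.4, 28.8 and 36.3 FPKM in Con and at 9.57, 9.99 and 8.58 FPKM in Bet+HMD. Fibcd1, in the CA1 list, was at 40.5, 33.5 and 31.4 FPKM in Con, 20.4 to 26.8 FPKM in HMD and 13.0, 13.4 and 13.5 FPKM in Bet+HMD, and Tbr1, in the cortex list, was at 9.83, 10.2 and 7.19 and at 17.7, 18.8 and 18.2 FPKM. The choroid plexus list varied widely between libraries, from 891 to 3543 FPKM in Con and 1125 to 1394 FPKM in Bet+HMD, and 0 of its 8 members were called by limma, its unadjusted p or voom. Ttr, its most abundant gene, was at 754, 2515 and 3146 FPKM in Con. The part of the regions included at dissection in the results above was not tested.

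In 207 called members the ranges of HMD and Bet+HMD overlapped, although single Bet+HMD values could lie outside HMD. Mat2a, described above, was one, and Bdnf, Gria1, Zbtb16 and Nefh were others. Nefh, the heavy neurofilament subunit, was at 13.6, 11.4 and 12.6 FPKM in Con, 21.7, 14.8 and 19.2 FPKM in HMD and 17.8, 16.1 and 15.8 FPKM in Bet+HMD (log2 fold change 0.38 ± 0.10 SE, limma adjusted p = 0.0203, and 0.0566 to 0.0881 without any one Bet+HMD library). Egr4, an immediate early gene, was at 22.9, 10.9 and 9.74 FPKM in Con, 7.82, 6.02 and 17.1 FPKM in HMD and 5.87, 6.97 and 6.39 FPKM in Bet+HMD, and Cck, a peptide of interneurons and pyramidal cells, at 82.3 to 174, 74.4 to 139 and 53.5 to 78.3 FPKM. Their Bet+HMD values did not overlap Con. The calls of Egr4 (limma adjusted p 0.0784 to 0.102) and Cck (0.0828 to 0.147) were lost without any one Bet+HMD library, and that of Cck also without Con replicate 1 or 3. Slc17a6, the vesicular glutamate transporter of the thalamus and other subcortical regions, was at 2.99, 5.38 and 3.78 FPKM in Con, 27.1, 7.48 and 10.3 FPKM in HMD and 8.92, 8.91 and 8.38 FPKM in Bet+HMD. This gene, Srrm2, Mtr, Bhmt, Ddx3y and Xist were chosen after their values were seen.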

How the data were processed

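RNA of the hippocampus of 9 mice was sequenced, and the authors deposited gene expression as FPKM in 2 tables, together with gene lengths, which are another unit and were taken as given. Per the submitters' processing notes the reads were aligned to mm10 with HISAT2 2.1.0 and counted with featureCounts 1.5.0-p3. Whether counting used the strand is not given in the sources used here. The later table, which holds all 3 groups, was used, and the earlier one gave an alternative range. A library size was fitted to the deposited values of each library so that FPKM times length and this size gave whole reads. It did so for 100% of values (tolerance 0.05), and depth was taken as the sum of these reads. At this depth 3 reads are at most 1.87e-05% of a library, a limit that covers counting error only. Columns with the prefix COL were read as Con by inference. Because FPKM are not counts, the authors' count-based tool was not used, and limma 3.58.1 (R 4.3.3) was used on log2(FPKM + 1) of Con and Bet+HMD, with its trended empirical Bayes test. Genes of any biotype with a mean of at least 1 FPKM were tested (13643, of which 11944 were protein-coding). p-values were two-sided and adjusted over these genes by the Benjamini-Hochberg method, with a threshold of 0.05. A second count also required a log2 fold change of 1 or more in either direction. Fold changes on this scale understate those of low genes, and folds given in the text as ratios are ratios of mean FPKM. SE is limma's, and p-values measure only the spread between these samples. Exact permutation of 3 against 3 samples cannot give a p under 0.1. The script was tested on simulated data with the same spread in both groups, so that test does not cover the unequal spread of these libraries.

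Named genes were the 10 largest rises and falls called with the 2-fold threshold and beyond the range of Con and HMD, the 2 largest called rises and falls of each list (the smallest p if none was called), the 5 of highest level, those next to the 5 FPKM limit, and all of the long-term potentiation and methionine lists. The members, gene lists and alternatives were chosen with earlier results of these data known. Alternatives were a pseudocount of 0.1, no filter or 5 FPKM, TPM, quantile normalization, median-ratio centring, no trend, 3 groups in 1 fit, protein-coding genes alone, voom on recovered reads, a replicate block, each library left out, the earlier table or a 1.5-fold margin for the range and, added after seeing the data, centring within deciles of gene length. Positions are those of the deposited tables, on GRCm38, whose identifiers matched GENCODE M21 for 54409 genes. Promoters are from RefSeq. Some genes that this rule names are not reported here.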

Additional observations from a re-analysis of the deposited data

How the results depend on the processing

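The count of called members stayed within 1.5 times the 3017 reported in each of the 18 alternative fits except those without one Bet+HMD library. With each library left out in turn it ran from 1830 to 3620, with 586 to 1128 higher and 1244 to 2492 lower. The scaling set the direction: TPM gave 1739 higher and 1055 lower (300 and 179 with the 2-fold threshold, 2008 above and 1304 below the range of Con and HMD), quantile normalization gave 1364 lower, and voom gave 238 at least 2-fold higher. With a 1.5-fold margin, 587 members were beyond the range, 234 above and 353 below. TPM and quantile normalization alter the common scale by construction, and the cause of the other moves was not tested. Centring within length deciles gave 2825 called members, 987 higher and 1838 lower.

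With the replicate number as a block 2072 members were called. The numbers do not pair the animals: same-numbered deviations correlated at -0.0489, -0.0902 and -0.176, and no Con sample correlated best with its own number. This replicate block, which uses up degrees of freedom, moved the count for 15 of 45 lists by over 1.5 times. Leaving out Bet+HMD replicate 1, 2 or 3 moved it for 17, 19 or 17 lists, quantile normalization for 13 and TPM for 11. Each of the other fits moved it for 9 lists or fewer.

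Of the 138 named genes 117 were called, and 16 changed sign under some setting. Under TPM the log2 fold changes of these were 0.10 for mt-Nd1, 0.016 for mt-Nd2, 0.066 for mt-Nd5, 0.012 for Ptk2b, 0.074 for Src, 0.065 for Ahcyl1, 0.17 for Ahcyl2, 0.15 for Aldh7a1 and 0.081 for Mthfd1. Under quantile normalization they were 0.12 for Gria1, 0.10 for Hnrnpk, 0.021 for Slc17a7, 0.24 for mt-Nd1, 0.068 for mt-Nd2, 0.16 for mt-Nd5, 0.23 for Ptk2b, 0.049 for Src, 0.24 for Ahcyl1, 0.11 for Ahcyl2 and 0.064 for Aldh7a1. Length centring gave 0.036 for mt-Cytb, 0.15 for mt-Nd5, -0.11 for Slc24a2 and -0.020 for Grin2a, and voom gave 0.032 for Ahcyl2 and 0.012 for Aldh7a1. With each library left out in turn, the sign turned for mt-Nd2 (-0.36 to 0.052), mt-Nd5 (-0.42 to 0.15), Slc1a1 (-0.014 to 0.092), Ahcyl2 (-0.10 to 0.014) and Aldh7a1 (-0.15 to 0.0032). Of these 16 genes Gria1, Hnrnpk and Slc17a7 were called with the deposited FPKM.

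Depth limits short genes of low level most: mt-Atp8 had 3 to 53 reads in the Con libraries.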

Other observations

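Some cell types and regions not described above also had marker genes among the members. Of 6 endothelium members 3 were called lower and 0 higher by limma (0 at an unadjusted p under 0.05 and 1 with voom), and their whole list summed to 133 to 140 FPKM in Con and 101 to 104 FPKM in Bet+HMD. Cldn5, the tight junction gene of the blood-brain barrier, was at 19.7, 15.6 and 21.8 FPKM in Con and at 9.88, 9.18 and 10.02 FPKM in Bet+HMD. Of 4 members that mark oligodendrocyte precursors 2, Olig1 and Pdgfra, were called lower and 0 higher. After TPM rescaling 0 were lower and 1 higher. The call of Olig1 was lost without Bet+HMD replicate 1 or 3 (limma adjusted p 0.0510 to 0.0631). That of Pdgfra was lost without Con replicate 1 or any one Bet+HMD library (limma adjusted p 0.0586 to 0.0867). Hba-a2, an alpha chain of haemoglobin and the one called of 4 red blood cell members, was at 14.1, 14.2 and 5.96 FPKM in Con, 24.7 to 35.6 FPKM in HMD and 1.29, 1.53 and 1.81 FPKM in Bet+HMD. The other 3 were not called. Among them Hba-a1, another alpha chain gene, overlapped between the groups, at 34.6 to 45.1 FPKM in Con and 24.7 to 51.0 FPKM in Bet+HMD. How reads were divided between these alpha chain genes was not tested. Of the 3 thalamus and 3 striatum members limma called 0, with 1 of each list at an unadjusted p under 0.05, and voom called 0 and 1. No ependyma or medial habenula marker was a member. The thalamus list summed to 44.8 to 60.8 FPKM in Con, 62.3 to 131 FPKM in HMD and 46.6 to 49.5 FPKM in Bet+HMD.

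With the deposited FPKM, falls outnumbered rises among the members of every autosome and of the X chromosome. On chromosome 11, which held the most members, 171 of 638 were called lower and 74 higher. On chromosome 19 there were 70 falls and 40 rises among 276. Over all members 28.5% were called lower and 13.3% higher, and the shares on both chromosomes were close to these. After TPM rescaling 1739 members were called higher and 1055 lower, and the counts by chromosome were not repeated on that scale. The median log2 fold changes of the autosomes ran from -0.18 on chromosome 6 to -0.08 on chromosome 17.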
